A study of Mus musculus with 12 samples.

Results

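Yap1, Wwtr1, Tead1, Tead2, Tead3, Tead4, Lats1, Lats2, Ccn1 and Ankrd1 were followed in mouse skin as the effectors, partner factors, inhibitory kinases and targets of the Hippo pathway. They were taken by symbol, 10 of the 55453 genes in the count file, and they were selected on results of the same mice, so their values below describe these mice and are not independent evidence of a change. All 10 had enough counts to be tested, among 18311 genes. The Hippo pathway is a kinase cascade that couples cell contact, tension and polarity to growth. Its last kinases, LATS1 and LATS2, phosphorylate the coactivators YAP (gene Yap1) and TAZ (gene Wwtr1) and so hold them in the cytoplasm. YAP and TAZ that reach the nucleus bind DNA through the TEAD factors and switch on genes such as Ccn1 and Ankrd1, and in skin the pathway is known for its roles in epidermal stem cells, hair follicles, wound repair and fibroblasts on stiff matrix. Much of this control acts on the proteins, by phosphorylation and location, which RNA counts do not measure.

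RNA from the skin of 12 female C57/BL6 mice was sequenced, 3 per group, to ask how loss of Thy-1, a surface glycoprotein of fibroblasts and other cells, alters the response to bleomycin. WT PBS mice were wild type and got the vehicle, WT BLM mice were wild type and got bleomycin, KO PBS mice were Thy1 knockout and got the vehicle, and KO BLM mice were Thy1 knockout and got bleomycin. Bleomycin, a drug that causes fibrosis where it is injected, was given under the back skin at 10 mg/kg per day for up to 14 days, and all skin was taken at day 21. The knockout was in all cells, its mice were 8 to 12 weeks old, and controls were littermates according to the methods. Whole skin was used, so fewer cells of a type and less RNA per cell cannot be told apart. The p-values weigh each difference against the spread between the mice sampled, which the main fit estimated over the 4 groups together.

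Each mouse gave between 26473700 and 38890450 counts on genes. Values are given as CPM (counts scaled to the library total) with TMM library factors. Thy1 itself stood at 104 to 150 CPM in WT PBS, 231 to 416 CPM in WT BLM, 45.6 to 96.9 CPM in KO PBS and 84.7 to 128 CPM in KO BLM mice, and a count per gene does not show which part of the gene was read. The mice differed in growing-hair genes: the mean log2 CPM of 21 growing-hair genes was 9.65 to 10.3 in the WT PBS mice and -0.11 to 3.77 in the WT BLM mice. It was 10.2 in KO PBS mouse 136 against -0.41 and 2.38 in KO PBS mice 137 and 139, and 9.16 in KO BLM mouse 141 against 5.34 and 6.30 in KO BLM mice 143 and 144. The 14 mature-muscle genes also differed, with a mean log2 CPM of 8.37 to 8.65 in WT PBS, 10.1 to 11.2 in WT BLM, 8.82 to 10.9 in KO PBS and 9.28 to 9.98 in KO BLM mice. Results that rest on mice 136 and 141 are given with and without them.

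The promoters of Ankrd1 and Ccn1, the targets that were higher after bleomycin, and of Yap1, the coactivator that was lower, are shown for the letters that TEAD factors are known to prefer, GGAATG, which reads CATTCC on the other strand. Each window runs 5′ to 3′ along the gene from 250 bases before to 50 bases after the RefSeq start on GRCm38.p6, and capitals mark GGAATG or CATTCC.
Ankrd1 (chr19:36119795-36120094, minus strand): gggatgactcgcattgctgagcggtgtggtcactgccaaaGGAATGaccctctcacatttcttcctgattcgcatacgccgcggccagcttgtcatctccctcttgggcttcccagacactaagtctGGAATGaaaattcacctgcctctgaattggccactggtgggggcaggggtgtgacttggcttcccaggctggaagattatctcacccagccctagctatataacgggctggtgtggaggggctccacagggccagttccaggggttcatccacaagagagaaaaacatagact
Ccn1 (chr3:145649936-145650235, minus strand): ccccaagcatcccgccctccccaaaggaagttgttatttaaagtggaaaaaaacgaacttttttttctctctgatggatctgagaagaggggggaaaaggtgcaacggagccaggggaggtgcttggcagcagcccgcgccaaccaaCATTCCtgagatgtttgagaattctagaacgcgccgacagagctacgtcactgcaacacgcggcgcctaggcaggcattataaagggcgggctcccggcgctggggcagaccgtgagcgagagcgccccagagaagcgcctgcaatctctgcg
Yap1 (chr9:8004547-8004846, minus strand): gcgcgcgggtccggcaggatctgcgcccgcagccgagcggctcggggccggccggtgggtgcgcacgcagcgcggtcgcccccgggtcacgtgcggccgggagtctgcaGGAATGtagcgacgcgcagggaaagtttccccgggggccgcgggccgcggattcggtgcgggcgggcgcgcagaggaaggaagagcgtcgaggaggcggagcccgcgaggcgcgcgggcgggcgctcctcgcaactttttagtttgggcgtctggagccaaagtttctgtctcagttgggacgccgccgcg
The Ankrd1 window held the motif at 2 places, 210 and 123 bases before the start. The Ccn1 window held it at 1 place on the reverse strand, 103 bases before the start, and the Yap1 window held it at 1 place, 141 bases before the start. RefSeq windows were matched for 8 of the 10 genes. Of these 12 windows 8 held the motif, in 6 genes, and Tead2 and Lats1 had no match. Windows of the same gene can overlap, and the Wwtr1 windows share the same match, which is counted in each. Among all 32851 promoter windows of this length, 14.7% held the motif, and 16.6% of the 27025 genes with a window had it in at least 1. The longer form GGAATGT, which contains the shorter motif, was in the Ccn1 and Yap1 windows and in a Tead3 window, was absent from the Ankrd1 window, and was in 3.85% of all windows. A match describes the letters of the window and does not show that a TEAD factor was bound.

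In WT skin, bleomycin was followed by higher Ankrd1, Ccn1, Tead1 and Tead4 and by lower Yap1, while Wwtr1, Tead2, Tead3 and Lats2 did not pass the test and Lats1 missed it narrowly. In Thy-1 KO skin only Ankrd1 passed the test, and Ccn1, with a log2 fold change close to that in WT skin, did not. The WT BLM against WT PBS comparison called 5 of the 10 genes, 4 higher and 1 lower, at an adjusted p under 0.05 in edgeR's quasi-likelihood test with Benjamini-Hochberg adjustment over all genes. Over all genes tested, 34.0% were called in this comparison, 19.8% higher and 14.1% lower. Values of the PBS and BLM mice were fully separate for 7 of the 10 genes, 4 higher and 3 lower, against 57.0% of all genes. The median log2 fold change was -0.02 over the 10 genes and 0.02 over all genes. Every adjusted p below comes from this edgeR fit unless DESeq2 is named.

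**Figure D1:**
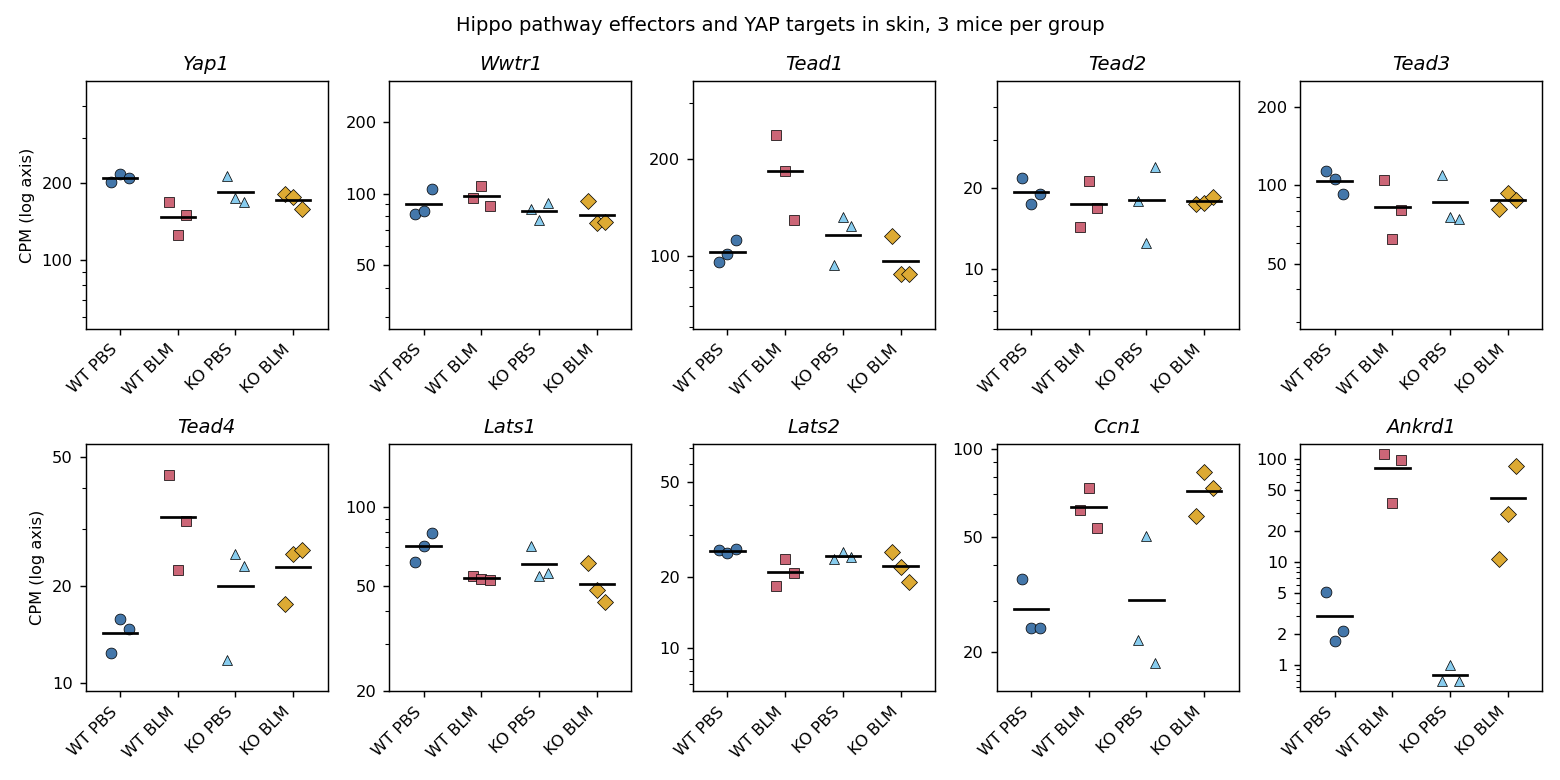
Level of each of the 10 genes in CPM (log axis) in the 12 mice, by group, with a point for each mouse and a bar at the group mean. Ankrd1 and Ccn1 lay higher in all BLM mice than in all PBS mice of the same genotype, Tead1 and Tead4 lay higher in the WT BLM mice than in the WT PBS mice, and Yap1 lay lower there.

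Yap1 encodes YAP, the main transcriptional coactivator held in check by the cascade (chr9:7931999-8004596, minus strand, GRCm38). Yap1 stood at 202, 216 and 209 CPM in the WT PBS mice and at 169, 125 and 150 CPM in the WT BLM mice. It stood at 212, 175 and 168 CPM in the KO PBS mice and at 181, 177 and 159 CPM in the KO BLM mice. All WT BLM mice were below all WT PBS mice, whereas the KO groups overlapped and KO PBS mouse 136 lay among the WT PBS mice. Yap1 fell in WT BLM against WT PBS mice by 0.50 on the log2 scale (SE 0.14, adjusted p = 0.0232). Its log2 fold change in KO BLM against KO PBS mice was -0.10 (SE 0.14, adjusted p = 0.694). The call in WT mice was lost without WT PBS mouse 160 or 161 or without WT BLM mouse 146 or 147, with adjusted p between 0.0508 and 0.0686.

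Wwtr1 encodes TAZ, the paralog of YAP (chr3:57455649-57575910, minus strand). Wwtr1 stood at 82.0, 84.7 and 105 CPM in the WT PBS mice and at 95.8, 107 and 88.9 CPM in the WT BLM mice. It stood at 85.9, 77.3 and 91.1 CPM in the KO PBS mice and at 93.2, 74.8 and 75.7 CPM in the KO BLM mice. The 4 groups overlapped throughout. The log2 fold change with bleomycin was 0.10 in WT (95% confidence interval -0.20 to 0.41) and -0.06 in KO mice (-0.37 to 0.24). Thus Yap1 was called lower in WT skin and the interval of Wwtr1 included 0.

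Tead1 is a TEAD factor that is also abundant in muscle, where it binds the promoters of contractile genes (chr7:112679318-112906807, plus strand). Tead1 stood at 95.4, 101 and 112 CPM in the WT PBS mice and at 237, 184 and 129 CPM in the WT BLM mice. It stood at 93.5, 132 and 124 CPM in the KO PBS mice and at 115, 87.6 and 87.5 CPM in the KO BLM mice. All WT BLM mice exceeded all mice of the WT PBS and KO BLM groups, with WT BLM mouse 145 highest and mouse 147 below KO PBS mouse 137. Tead1 rose in WT BLM mice with a log2 fold change of 0.84 (SE 0.22, adjusted p = 0.0191). Its log2 fold change in KO mice was -0.27 (SE 0.22, adjusted p = 0.499). The WT call was lost without WT BLM mouse 145 (adjusted p = 0.0614), WT PBS mouse 159 (0.0686) or WT PBS mouse 160 (0.0725).

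Tead4 is the TEAD factor known from the early embryo and from differentiating muscle cells (chr6:128224288-128300823, minus strand). Tead4 stood at 12.4, 15.8 and 14.7 CPM in the WT PBS mice and at 43.9, 22.4 and 31.7 CPM in the WT BLM mice. It stood at 11.8, 25 and 23.0 CPM in the KO PBS mice and at 17.5, 25.2 and 25.7 CPM in the KO BLM mice. The WT groups did not overlap, and the 2 lowest KO values were those of mice 136 and 141, which had the highest growing-hair values of their groups. Tead4 rose in WT BLM mice with a log2 fold change of 1.19 (SE 0.31, adjusted p = 0.0191). For KO mice the value was 0.19 (SE 0.31, adjusted p = 0.747). The WT call was lost without WT BLM mouse 145 or any of the WT PBS mice, with adjusted p between 0.0564 and 0.0725.

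Tead2 and Tead3, the TEAD factors known best from neural tissue and from placenta and epithelia, overlapped between the PBS and BLM groups of both genotypes. Tead2 (chr7:45215753-45233644, plus strand) ranged from 12.5 to 24.0 CPM over the 12 mice, with group means of 17.4 to 19.4 CPM. Tead3 (chr17:28331671-28350817, minus strand) ranged from 62.6 to 113 CPM, and its highest values outside the WT PBS group were those of KO PBS mouse 136 at 110 CPM and WT BLM mouse 145 at 104 CPM. The log2 fold change in WT mice was -0.15 (SE 0.23) for Tead2 and -0.33 (SE 0.20) for Tead3. Of the 4 TEAD genes in WT skin, Tead1 and Tead4 were called higher, and the intervals of Tead2 (-0.65 to 0.35) and Tead3 (-0.78 to 0.11) included 0. Tead2 shares 13 exonic bases with Cd37, a leukocyte gene on the opposite strand with 208 to 1069 counts per mouse.

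Lats1 and Lats2 encode the kinases that phosphorylate YAP and TAZ. Lats1 (chr10:7681214-7716460, plus strand) stood at 61.4, 71.0 and 79.5 CPM in the WT PBS mice and at 54.4, 53.0 and 52.6 CPM in the WT BLM mice. It stood at 70.9, 54.3 and 55.8 CPM in the KO PBS mice and at 61.0, 48.3 and 43.3 CPM in the KO BLM mice. The WT BLM values lay close together and below every WT PBS value, and in each KO group the mouse with the highest growing-hair value, 136 or 141, was highest in Lats1. The log2 fold change of Lats1 was -0.41 in WT (SE 0.16, adjusted p = 0.0660) and -0.25 in KO mice (SE 0.16, adjusted p = 0.388). The WT difference passed the test without mouse 136 (adjusted p = 0.0319), without mouse 141 (0.0333), without both (0.00969) and in DESeq2 (0.0401). Over all genes, 45.7% were called in WT mice without mouse 136 and 49.0% without both.

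Lats2 (chr14:57689662-57758388, minus strand), itself a gene that YAP is known to induce in many cells, stood at 25.9, 25.1 and 26.2 CPM in the WT PBS mice and at 18.2, 23.8 and 20.7 CPM in the WT BLM mice. It stood at 23.8, 25.5 and 24.1 CPM in the KO PBS mice and at 25.4, 21.9 and 19.1 CPM in the KO BLM mice. The WT groups did not overlap, but the log2 fold change of -0.30 (SE 0.14, adjusted p = 0.104) did not pass the test. Lats2 shares 2955 of its 6971 exonic bases with Gm49361 on the same strand, which had 0 counts in all mice, and the authors' handling of such reads is not given in the sources used here.

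Ccn1 encodes CYR61, a secreted matricellular protein of the CCN family that binds integrins (chr3:145646976-145649981, minus strand). Ccn1 stood at 35.7, 24.3 and 24.2 CPM in the WT PBS mice and at 61.8, 73.7 and 53.6 CPM in the WT BLM mice. It stood at 22.0, 50.2 and 18.4 CPM in the KO PBS mice and at 58.7, 83.4 and 73.6 CPM in the KO BLM mice. Every BLM mouse lay above every PBS mouse, of either genotype, with KO PBS mouse 137 closest to the BLM mice. Ccn1 rose in WT mice with a log2 fold change of 1.17 (SE 0.34, adjusted p = 0.0285). The KO value was 1.25 (SE 0.34, adjusted p = 0.126), and it passed the test without KO PBS mouse 137 (1.83, adjusted p = 0.0491) and in DESeq2 (1.23, adjusted p = 0.0195). The WT call was lost without any of the 6 WT mice, with adjusted p between 0.0502 and 0.0989.

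Ankrd1 encodes an ankyrin repeat protein, CARP, of the nucleus and the muscle sarcomere, known both as a YAP target and as a gene of injured or stretched muscle (chr19:36111961-36120099, minus strand). Ankrd1 stood at 5.14, 1.71 and 2.11 CPM in the WT PBS mice and at 114, 38.0 and 98.4 CPM in the WT BLM mice. It stood at 0.698, 1.0 and 0.685 CPM in the KO PBS mice, from 21, 35 and 23 counts, and at 10.6, 29.4 and 85.5 CPM in the KO BLM mice. Every BLM mouse lay above every PBS mouse, and the KO BLM mice spread widely, with mouse 141 lowest and mouse 144 highest. Ankrd1 rose in WT mice with a log2 fold change of 4.81 (SE 0.79, adjusted p = 0.0049), or 28.0-fold. It rose in KO mice with a log2 fold change of 5.71 (SE 0.85, adjusted p = 0.0341), or 52.3-fold. The WT call held without each mouse in turn, with adjusted p between 0.00137 and 0.0311. The KO call was lost without WT PBS mouse 159, 160 or 161 or WT BLM mouse 145 or 147 (adjusted p between 0.0560 and 0.0651), and without KO PBS mice 137 (adjusted p = 0.102) and 139 (0.153) and KO BLM mice 143 (0.0981) and 144 (0.111, log2 fold change 4.65), and it was also lost in a fit of the KO groups alone (0.271). Of all genes, 0% to 0.123% were called in KO mice in these fits, against 0.306% with all mice. With each mouse left out in turn, the log2 fold change of Ankrd1 in KO mice ran from 4.65 to 6.16.

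In KO BLM against KO PBS mice 1 of the 10 genes was called, Ankrd1, against 0.306% of all genes. Between the KO groups the values were fully separate for 2 of the 10, Ankrd1 and Ccn1, both higher, against 19.3% of all genes. The median log2 fold change of the 10 genes was -0.04. DESeq2 called 2 of the 10, Ankrd1 and Ccn1, against 5.95% of all genes with an adjusted p, and in WT mice it called 6 of the 10, with Lats1 added, against 34.7%.

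**Figure D2:**
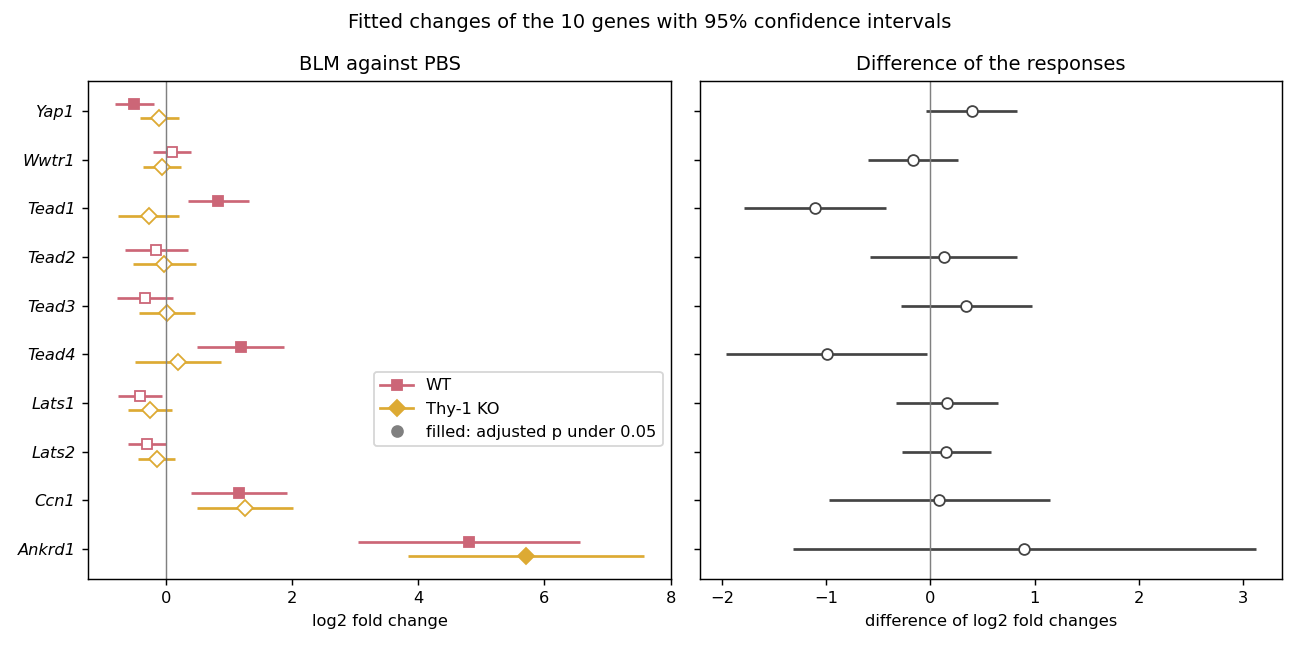
Fitted log2 fold changes of the 10 genes, BLM against PBS, in WT and KO mice (left) and the difference of the responses, KO minus WT (right), with 95% confidence intervals. Filled symbols passed an adjusted p of 0.05. Ankrd1 and Ccn1 lie to the right of 0 in both genotypes, Tead1 and Tead4 do so in WT mice, and no difference of responses is filled.

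The levels of the genes relative to each other were compared as CPM per kilobase of exonic length (GENCODE M21). In WT PBS skin Yap1 led at 22.6 ± 0.743 CPM per kilobase (SD, n = 3), followed by Wwtr1 at 19.0 ± 2.64, Tead3 at 15.4 ± 1.57 and Ccn1 at 13.9 ± 3.28. Lats1 at 9.68 ± 1.24 and Tead1 at 7.58 ± 0.628 CPM per kilobase came next. Tead2, Tead4 and Lats2 lay between 3.69 and 4.04 CPM per kilobase and did not differ from each other beyond their spread, nor did Wwtr1 from Tead3 or Tead3 from Ccn1. Ankrd1 was lowest at 1.04 ± 0.649 CPM per kilobase. In WT BLM skin the order had changed at its head. Ccn1 at 31.2 ± 4.99 and Ankrd1 at 28.9 ± 13.9 CPM per kilobase then stood above Wwtr1 at 20.4 ± 1.93 and Yap1 at 16.0 ± 2.37, although the spread of Ankrd1 reached that of Wwtr1 and Yap1. In KO BLM skin Ccn1 was highest at 35.6 ± 6.16 CPM per kilobase, Yap1 second at 18.6 ± 1.29, and Ankrd1, at 14.5 ± 13.5, spread across the levels of most other genes. By the length of the longest transcript, Tead3 at 30.1 CPM per kilobase moved above Wwtr1 in WT PBS skin, and Ankrd1 at 41.3 moved above Ccn1 in WT BLM skin. Yap1 by that length stood at 28.0 CPM per kilobase in WT BLM skin, above Wwtr1 at 20.7 and near Ccn1 at 31.2. In KO BLM skin it stood at 32.6, near Ccn1 at 35.6 CPM per kilobase.

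Without bleomycin, none of the 10 genes was called between the genotypes. In KO PBS against WT PBS mice, 0.0655% of all genes were called, and DESeq2 called 0 of the 10 genes against 3.69% of all genes. Full separation was seen for 1 of the 10, Ankrd1, against 18.9% of all genes. Ankrd1 was lower in all KO PBS mice, with a log2 fold change of -1.90 (SE 0.76, adjusted p = 0.224), and it was the 1 gene of the 10 with an unadjusted p under 0.05. The other 9 genes had log2 fold changes between -0.26 and 0.48. KO PBS mouse 136 set part of the Tead4 value: without it, the log2 fold change of Tead4 was 0.74 in place of 0.48 and passed the test (adjusted p = 0.0482), the 1 call of the 10 genes, while 36.7% of all genes were then called. Without mice 136 and 141 together, Tead4 (0.74, adjusted p = 0.0343) and Lats1 (-0.36, adjusted p = 0.0343) passed it, 2 of the 10 against 40.9% of all genes.

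After bleomycin, none of the 10 genes was called between the genotypes either. In KO BLM against WT BLM mice, 0.0928% of all genes were called, and the values were fully separate for 1 of the 10 genes, Tead1, against 27.5% of all genes. Tead1 was lower in every KO BLM mouse than in every WT BLM mouse, with a log2 fold change of -0.93 (SE 0.22, adjusted p = 0.193). It was the 1 gene of the 10 with an unadjusted p under 0.05, and DESeq2, which called 2.99% of all genes, called it (-0.92, adjusted p = 0.0124). Without KO PBS mouse 136 it also passed the edgeR test (-0.92, adjusted p = 0.0333), and without mice 136 and 141 it stood at -1.07 (adjusted p = 0.0390). It was the 1 gene of the 10 called in both of these fits, against 6.89% of all genes without mouse 136 and 4.36% without both. Ankrd1 differed by -1.0 (95% confidence interval -2.49 to 0.50) and Ccn1 by 0.19 (-0.56 to 0.94).

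The difference of the bleomycin responses between genotypes, KO minus WT, asks directly whether a gene answered differently, and it uses the same mice as the comparisons above. It was called for none of the 10 genes and for 0% of all genes, although 5687 genes, Tead1 and Tead4 among them, had an unadjusted p under 0.05. For Tead1 the difference was -1.10 (SE 0.31, adjusted p = 0.0752) and for Tead4 it was -1.0 (SE 0.43, adjusted p = 0.151). For Yap1 it was 0.40 (SE 0.20, adjusted p = 0.188). DESeq2 called 17.8% of all genes here and, of the 10, Tead1 (-1.11, adjusted p = 0.0155). Without KO PBS mouse 136, edgeR called Tead1 (-1.23, adjusted p = 0.00958), Tead4 (-1.26, adjusted p = 0.0183) and Yap1 (0.51, adjusted p = 0.0469), 3 of the 10 genes, against 39.9% of all genes. Without mice 136 and 141 together it called Tead1 (-1.38, adjusted p = 0.00739) and Tead4 (-1.10, adjusted p = 0.0314), 2 of the 10, against 38.6% of all genes. For the targets the difference was small for Ccn1, at 0.09 (95% confidence interval -0.98 to 1.15), and wide for Ankrd1, at 0.90 (-1.32 to 3.13).

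The other genes of the pathway were taken from a list of 32 symbols, of which 31 were tested, covering upstream kinases, adaptors, polarity and cell-contact proteins and the VGLL cofactors. In WT BLM against WT PBS mice 5 rose, 9 fell and 17 did not pass the test, with a median log2 fold change of -0.16. Of all genes 34.0% were called there, 19.8% higher and 14.1% lower. Without WT PBS mouse 159, 160 or 161 the 14 calls became 4, 5 or 6, and without WT BLM mouse 145, 146 or 147 they became 7, 6 or 6, while the share of all genes called in these 6 fits ran from 13.9% to 21.5%. Without KO BLM mouse 143 they became 8, against 28.2% of all genes. Of the core kinase module, the kinases MST1 and MST2 (Stk4 and Stk3), the adaptors Sav1, Mob1a and Mob1b and the activator Nf2 were not called. Their log2 fold changes lay between -0.34 and 0.12, and Nf2 came closest to a call (-0.34, adjusted p = 0.0605). Vgll2, a TEAD cofactor of skeletal muscle, rose most, from a mean of 1.57 to 21.2 CPM (log2 fold change 3.76, SE 0.55). Amot, an angiomotin that binds YAP, rose with a log2 fold change of 1.66 (SE 0.43). Dchs1 and Fat4, a cadherin ligand and its receptor, both rose, with log2 fold changes of 1.56 (SE 0.44) and 1.49 (SE 0.51), and Fat4 spread from 10.3 to 46.9 CPM in the WT BLM mice.

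Among the genes that fell, Wwc1, which encodes the LATS activator KIBRA, dropped most, from a mean of 91.8 to 32.0 CPM (log2 fold change -1.52, SE 0.33). Vgll4, a cofactor that competes with YAP for TEAD, fell by 0.85 (SE 0.24), Crb3, an apical polarity protein, fell by 0.79 (SE 0.27) and Fat1, a protocadherin, fell by 0.74 (SE 0.26) on the log2 scale. Among the 31 pathway genes tested, the calls thus lay in both directions, 5 higher and 9 lower, against 19.8% and 14.1% of all genes. In KO BLM against KO PBS mice, in KO PBS against WT PBS mice, in KO BLM against WT BLM mice and in the difference of responses, 0 of the 31 genes were called. Of all genes, 0.306%, 0.0655%, 0.0928% and 0% were called in these comparisons, in the same order. Without KO PBS mouse 136 the difference of responses was called for 16 of them, against 39.9% of all genes, and KO PBS against WT PBS for 11, against 36.7%. Without KO BLM mouse 141 the KO response was called for 4, against 6.19% of all genes. Vgll2 was higher in all KO BLM than in all KO PBS mice (log2 fold change 1.94, SE 0.51, adjusted p = 0.119).

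Of 19 further YAP and TAZ target genes known from other cells, 18 were tested, of which Amotl2 and Ptpn14 are also on the list of pathway genes. In WT BLM against WT PBS mice 4 rose, 3 fell and 11 did not pass the test, with a median log2 fold change of 0.15, against 19.8% of all genes called higher and 14.1% called lower. Myof, a membrane repair protein, rose from a mean of 93.0 to 211 CPM (log2 fold change 1.19, SE 0.21). Igfbp3, a binding protein of insulin-like growth factors, rose with 1.15 (SE 0.36), Tgfb2, a TGF-β ligand, with 0.88 (SE 0.26) and Axl, a receptor kinase, with 0.72 (SE 0.18). Ccn2, the CCN-family relative of Ccn1 that encodes CTGF, stood at 56.0 to 62.4 CPM in WT PBS and 92.0 to 128 CPM in WT BLM mice without passing the test (0.87, SE 0.32, adjusted p = 0.0552). Fjx1, the mouse relative of the fly gene four-jointed, fell by 0.97 (SE 0.28), Nt5e, the ecto-nucleotidase CD73, fell by 0.95 (SE 0.22) and Amotl2, an angiomotin, fell by 0.56 (SE 0.13) on the log2 scale. Without WT PBS mouse 159 the 7 calls became 3, and without WT PBS mouse 160 or WT BLM mouse 147 they became 4.

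In KO BLM against KO PBS mice 0 of the 18 target genes were called, and their median log2 fold change was -0.25, with 4 of the 18 above 0. Of all genes 0.306% were called there, with a median log2 fold change of -0.007, so a count of 0 is not particular to the targets. Of the targets called higher in WT mice, the log2 fold change in KO mice was 0.08 for Myof, -0.09 for Igfbp3, -0.18 for Axl and -0.72 for Tgfb2, and of those called lower it was 0.05 for Fjx1, -0.81 for Nt5e and -0.32 for Amotl2. These genes were named because they were called in WT mice, so values nearer 0 in KO mice can follow from that choice. The difference of responses for Tgfb2 was -1.60 (SE 0.36, adjusted p = 0.0702) and for Myof it was -1.11 (SE 0.29, adjusted p = 0.0722). Without KO PBS mouse 136 the difference was called for 6 of the 18 genes, against 39.9% of all genes, and the KO PBS against WT PBS comparison for 8, against 36.7%. Tgfb2, for example, stood at 10.3 to 12.8 CPM in WT PBS, 19.2 to 22.7 CPM in WT BLM, 14.5 to 33.3 CPM in KO PBS and 12.4 to 15.2 CPM in KO BLM mice.

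**Figure D3:**
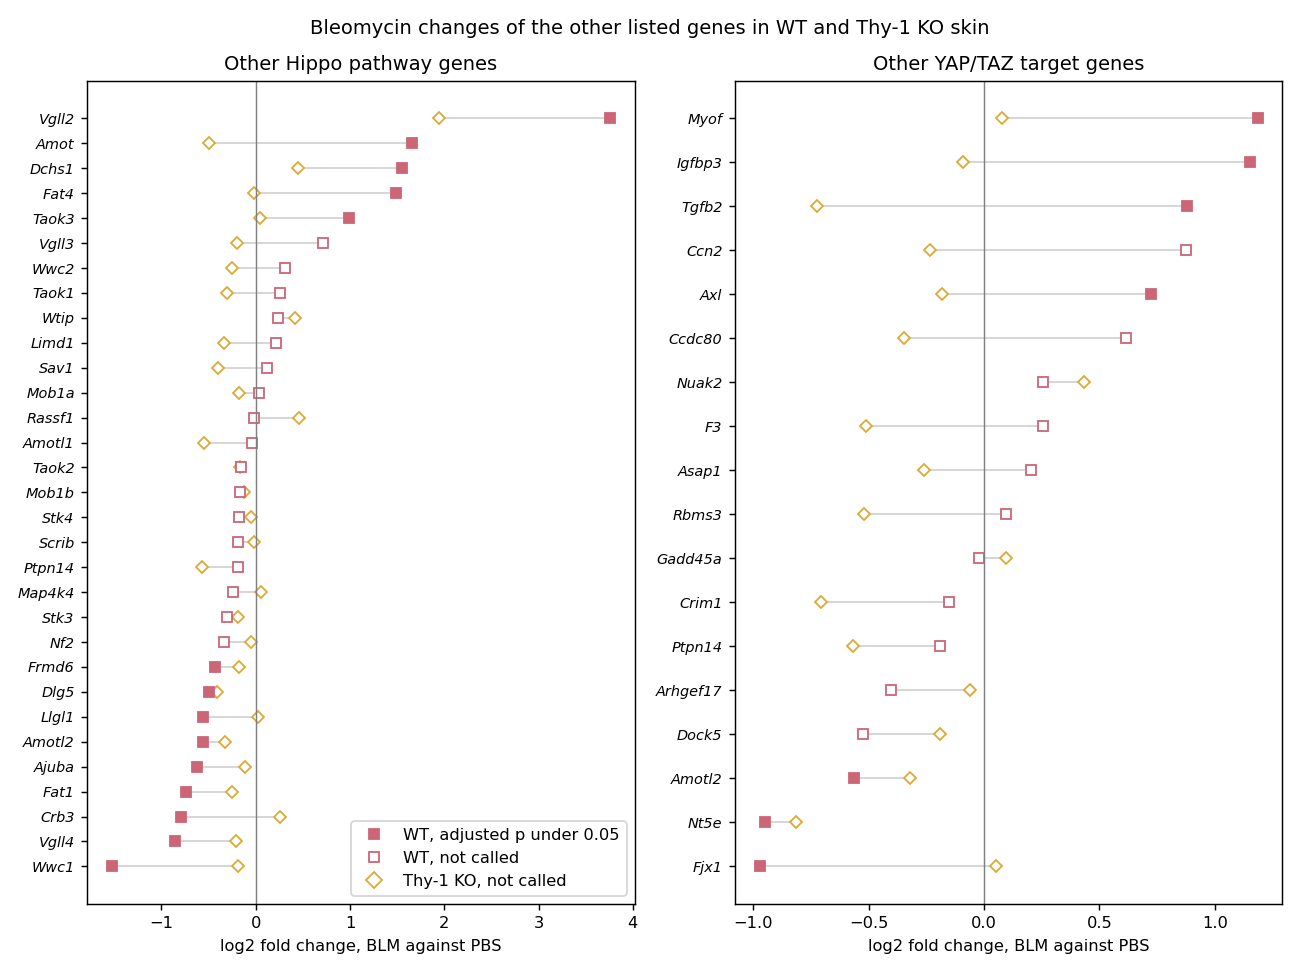
Log2 fold change, BLM against PBS, of 31 other Hippo pathway genes (left) and 18 other YAP/TAZ target genes (right) in WT mice (squares, filled where the adjusted p was under 0.05) and KO mice (diamonds, none called), joined by a line for each gene. In WT mice 14 of 31 pathway genes and 7 of 18 target genes are filled, in both directions.

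Markers of other tissue moved with several of these genes. The 13 regenerating-muscle genes, which include the embryonic myosin Myh3 and the fusion protein gene Mymk, had a mean log2 CPM of 0.23 to 1.97 in WT PBS, 5.41 to 6.61 in WT BLM, 0.72 to 1.75 in KO PBS and 3.99 to 5.56 in KO BLM mice. At most 1 of the 13 had 0 counts in any mouse, and 12 of 13 were called higher in WT and 3 of 13 in KO mice after bleomycin. Over all genes tested, 19.8% were called higher in WT mice, and 0.306% were called in KO mice. These genes are given below by their sums as well. Summed, the 13 regenerating-muscle genes ran from 81.4 to 153 CPM in WT PBS, from 1440 to 3655 CPM in WT BLM, from 114 to 123 CPM in KO PBS and from 473 to 1600 CPM in KO BLM mice. KO BLM mouse 144 had the highest value of its group on this list and in Ankrd1, and mouse 141 the lowest in both. The 14 mature-muscle genes were called higher for 13 of 14 in WT and for 0 in KO mice after bleomycin, and they summed to 6928 to 7649 CPM in WT PBS, 23233 to 48039 CPM in WT BLM, 8784 to 36837 CPM in KO PBS and 13570 to 25328 CPM in KO BLM mice. WT BLM mice 145 and 146 had the highest values both of this list and of Tead1. The part of muscle in the values of Ankrd1, Tead1, Tead4 and Vgll2 was not tested.

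With the mean log2 CPM of the regenerating-muscle list as a covariate, 0 of the 10 genes were called in WT mice and the log2 fold change was -0.70 (SE 1.20) for Ankrd1, -0.27 (SE 0.96) for Tead4 and -0.04 (SE 0.99) for Ccn1. That list did not overlap between the PBS and BLM groups of either genotype, so the list and the treatment can hardly be told apart in this fit and the standard errors grew. With the growing-hair list as a covariate, 0 of the 10 genes were called in WT mice as well. Of all genes, the muscle covariate left 0% called in WT mice and the hair covariate 0.0765%. The WT groups did not overlap on this list either, and the log2 fold change was 3.10 (SE 1.27) for Ankrd1, 0.63 (SE 0.33) for Tead1, 0.11 (SE 0.27) for Tead4, -0.36 (SE 0.21) for Yap1 and 0.56 (SE 0.44) for Ccn1. In KO mice, whose groups overlapped on the hair list, the hair covariate left Ankrd1 called and Ccn1 was called as well (1.51, adjusted p = 0.0250), 2 of the 10 against 8.99% of all genes. Growing-hair genes had 0 counts for at most 3 of 21 genes in a mouse and summed to 49008 to 71349 CPM in WT PBS, 62.4 to 852 CPM in WT BLM, 61.3 to 78404 CPM in KO PBS and 3662 to 37474 CPM in KO BLM mice.

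**Figure D4:**
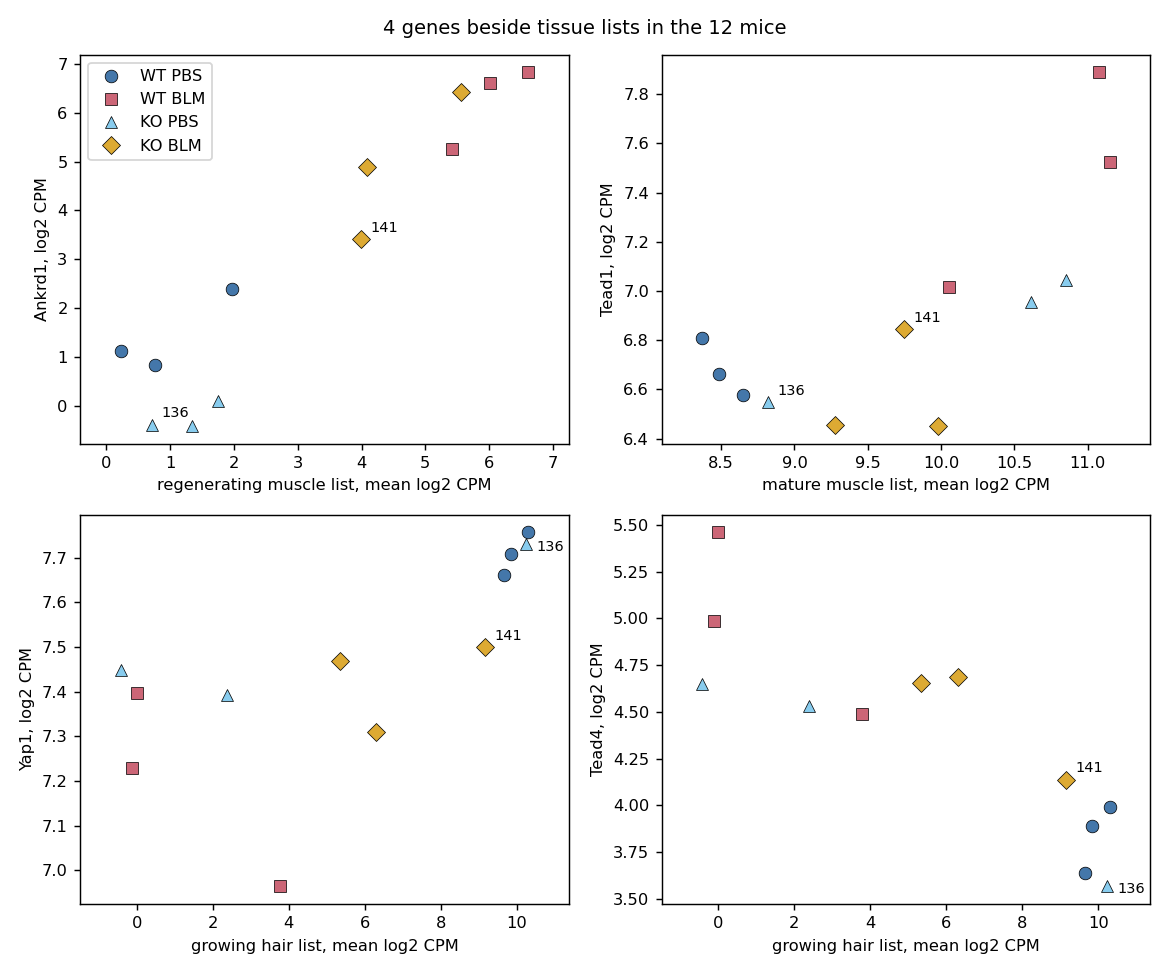
Log2 CPM of Ankrd1, Tead1, Yap1 and Tead4 in the 12 mice against the mean log2 CPM of a tissue list in the same mouse (regenerating muscle, mature muscle, growing hair and growing hair), with a symbol for each group and KO PBS mouse 136 and KO BLM mouse 141 marked by number. Ankrd1 was high where the regenerating-muscle list was high, and mouse 136 lay beside the WT PBS mice in the Yap1 and Tead4 panels.

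Marker lists of other cell types of skin differed in how many genes were called. Of 8 macrophage genes 7 rose in WT BLM mice, as did 4 of 8 fibroblast genes, 4 of 8 endothelial genes, 3 of 8 basal epidermal genes, 2 of 8 mural and smooth muscle genes and 3 of 7 stress keratin and alarmin genes of the epidermis, of which 1 more fell, and 0 of 8 adipocyte genes were called. Over all genes tested, 19.8% were called higher and 14.1% lower in WT mice, so the smaller counts lie near these shares. In KO mice after bleomycin 1 of the mural and smooth muscle genes was called and 0 of each of the other lists named in this paragraph. Of all genes, 0.306% were called in KO mice. Summed fibroblast genes ran from 6009 to 8137 CPM in WT PBS, 10843 to 34806 CPM in WT BLM, 5610 to 18476 CPM in KO PBS and 8818 to 23523 CPM in KO BLM mice. Summed macrophage genes ran from 288 to 641 CPM in WT PBS, 1672 to 2328 CPM in WT BLM, 310 to 1443 CPM in KO PBS and 1116 to 1585 CPM in KO BLM mice. The part of these cell types in the values of the 10 genes was not tested.

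Pearson correlation of log2 CPM over the 12 mice gave the genes most like each member, among tested genes averaging 1 CPM or more. Genes with Gm-number, Rik or clone names were left out of this search. The most alike genes are given as a description, since the mice fall into groups and share hair and muscle differences. Ankrd1 was most like Bhlhe40 (r = 0.983), Tnnc1 (0.981), which encodes the troponin C of slow and cardiac muscle, and Col26a1 (0.979). Yap1 was most like Paqr5 (r = 0.986), Liph (0.976) and Paqr3 (0.976). Tead1 was most like Usp47 (r = 0.957), Idh3a (0.950) and Ank3 (0.944), and Tead4 was like Cerk (0.968) and Chrd (0.962). Lats1 was most like Uhmk1 (r = 0.979), Appbp2 (0.975) and Ppp4r3b (0.972), and Lats2 was most like Trabd2b (0.970), Klhl42 (0.953) and Akr1cl (0.950). Ccn1 was most like Pgf (r = 0.921), Hint2 (0.908) and Oxa1l (0.906). Wwtr1 was most like Itch (r = 0.935), Kifap3 (0.930) and Zfp281 (0.898), Tead3 was most like Wdr24 (0.953), Fbrs (0.944) and Capn15 (0.941), and Tead2 was most like Cplx2 (0.818), Wnt2 (0.815) and Chsy3 (0.786). Tead2 had the lowest of these correlations.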

How the data were processed

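Skin RNA of 12 mice was analysed in 4 groups of 3 that were taken from the sample labels. The authors made stranded mRNA libraries and deposited raw read counts per gene, listed by symbol, without normalization. The submitters' processing notes name GRCm38.p6 and MultiQC 1.7. The aligner, the counter and the use of strand in counting are not given in the sources used here. Counts were filtered with filterByExpr (at least 10 counts after scaling, 15 in total), scaled by TMM and fitted in edgeR 4.0.16 (R 4.3.3) with a quasi-likelihood model of 4 group means. This gave 5 contrasts with Benjamini-Hochberg adjustment over 18311 genes and a threshold of 0.05. Log2 CPM used a prior count of 2. Variation between mice, as edgeR's biological coefficient, was 34.9%, and library totals had a median of 31494965 counts. No replicates were alike within sampling noise (chi-square of at least 36.2 per degree of freedom).

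The 10 genes and all lists were chosen with earlier results of these data known. The text names all 10 genes, up to 4 genes per direction with the largest change among those called in WT mice from the pathway and target lists, and the 3 genes most alike to each member, of which 1 is not reported here. Ccn2, Ptpn14, the core kinase genes and the muscle genes were named for their roles, after their values were seen. Positions and lengths came from GENCODE M21 (GRCm38), and promoters from RefSeq (GRCm38.p6). Alternatives were DESeq2 1.42.0, RLE and upper-quartile normalization, other filters on low counts, a fit restricted to the compared groups, omission of each mouse, leaving out KO PBS mouse 136 with KO BLM mouse 141, and the growing-hair or regenerating-muscle list as a covariate. The edgeR fit was tested on simulated counts, and the other steps were not. Plots were drawn in Python 3.11.15 with matplotlib 3.10.9.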

Additional observations from a re-analysis of the deposited data

How the results depend on the processing

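Of the 10 genes, edgeR called 5 in WT mice, 1 in KO mice and 0 in each of the other comparisons. With mice left out in turn, the count ran from 1 (without WT PBS mouse 160) to 6 (without KO PBS mouse 136) in WT mice and from 0 to 1 in KO mice. It ran from 0 to 1 in KO PBS against WT PBS, from 0 to 1 in KO BLM against WT BLM and from 0 to 3 in the difference of responses, where mouse 136 gave the highest count in each. Over all genes, 13.9% were called in WT mice without mouse 160 and 45.7% without mouse 136, against 34.0% with all mice. In KO PBS against WT PBS, KO BLM against WT BLM and the difference of responses, 36.7%, 6.89% and 39.9% of all genes were called without mouse 136. Of the 10 genes, other settings gave further counts. DESeq2 called 2 in KO mice, 1 in KO BLM against WT BLM and 1 in the difference. With mice 136 and 141 left out together, 2 were called in KO PBS against WT PBS, 1 in KO BLM against WT BLM and 2 in the difference. The hair covariate left 0 calls in WT and 2 in KO mice, the regenerating-muscle covariate left 0 in WT and 0 in KO mice, and a fit of only the KO groups called 0 in KO mice. Of all genes, the fit of only the KO groups and the regenerating-muscle covariate each called 0% in KO mice. The cause of these changes was not tested. Of the 5 genes called in WT mice, the regenerating-muscle covariate turned the sign of Ankrd1 (-0.70, SE 1.20), Tead4 (-0.27, SE 0.96) and Ccn1 (-0.041, SE 0.99). These SEs are larger than the values, so the new signs are not resolved. Leaving out mice moved the count of the other pathway genes called in WT mice from 14 to between 4 and 17, and that of the other targets from 7 to between 3 and 8, and both covariates left 0 of either list. The main counts of 0 on these lists became 2 pathway and 2 target genes in KO mice by DESeq2, 1 target gene in KO PBS against WT PBS, and 4 and 3 genes in the difference. Without mice 136 and 141 they became 9 and 4 in KO mice, 14 and 9 in KO PBS against WT PBS and 14 and 8 in the difference, and with the hair covariate 2 and 1 in KO mice. Across all genes, DESeq2 called 1202 in KO mice against 56 by edgeR, 746 against 12 in KO PBS against WT PBS, 585 against 17 in KO BLM against WT BLM and 3253 against 0 in the difference. Without mice 136 and 141 edgeR called 4164 genes in KO mice, 7648 in KO PBS against WT PBS, 815 in KO BLM against WT BLM and 7218 in the difference, and with the hair covariate it called 14 genes in WT mice in place of 6222 and 1647 in KO mice. RLE and upper-quartile normalization and the filters on low counts changed no call of the 10 genes. No paired analysis was possible because the labels give no litter or other pairing of the mice. With 3 mice per group, the standard errors of the log2 fold changes of the 10 genes in WT mice ran from 0.14 to 0.79, which limits the size of change that could be called.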
